A study of Mus musculus with 26 samples.

Results

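The 10 genes of bile acid synthesis and transport described here are Cyp7a1, Cyp8b1, Cyp27a1, Cyp7b1, Slc27a5, Baat, Slc10a1, Slco1b2, Abcb11 and Nr0b2, of 31804 gene entries in the RNA polymerase II (Pol II) data. They were chosen by name, for their function, and all 10 were found. The study mapped the liver transcription factors C/EBPalpha and C/EBPbeta, and Pol II, by chromatin immunoprecipitation and sequencing (ChIP-seq) while mouse liver grew back after partial hepatectomy, the surgical removal of part of the liver. Each of these 3 antibodies was used at 0, 3, 8, 16, 24, 36, 48 and 168 h, and an antibody to Egr1, a growth-response transcription factor, was used at 36 h. All groups were wild-type C57BL6/J males of 7 weeks, with 3 of 5 lobes removed. The tissue cut out at surgery was the 0 h sample. Changes against 0 h thus compare removed lobes with liver left in place, and differences between lobes and effects of time cannot be told apart. Livers of 5 mice were collected per time point, and each antibody and time gave 1 library, so no difference between 2 times has a replicate check. A sham-operated group was not analysed here. No source used here gives the hour of day of each collection, so time after surgery and time of day cannot be told apart.

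Bile acids are made from cholesterol in hepatocytes. Cyp7a1 is the rate-limiting enzyme of the classical pathway, and Cyp8b1 adds the hydroxyl group that makes cholic acid. Cyp27a1 and Cyp7b1 belong to the alternative pathway. Slc27a5 links bile acids to coenzyme A and Baat joins them to an amino acid. Slc10a1 (NTCP) and Slco1b2 take bile acids up from portal blood, and Abcb11 (the bile salt export pump) secretes them into bile. Nr0b2 (SHP) is a nuclear receptor without a DNA-binding domain that represses Cyp7a1 and Cyp8b1 when bile acids accumulate.

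Pol II on these genes is given as the signal over the gene body divided by the measured length in base pairs (bp), after the 8 libraries were brought to 1 scale over 1472 genes. All 10 genes passed the filter for testing, a signal above 0.5 per bp in at least 2 libraries, as did 4761 of the 20933 measured genes. The signal is net of a background and can fall below 0. Over the 14694 genes under 0.5 per bp in all 8 libraries, its median before rescaling ran from -0.28 (3 h) to -0.06 (168 h). In the 3 h library the deposited signals summed to below 0 and 18.8% of tested genes lay below 0, against 3.00% to 15.6% in the other 7 libraries. The tissue carried hepatocyte signal throughout: 11 of 11 measured hepatocyte markers were above 0.5 per bp in all 8 libraries, with a summed level from 596 (16 h) to 1098 (3 h) per bp. Apoa1 alone made up 649 of the 3 h sum. At 3 h 4 of the 11 were lower than at 0 h by 1 or more on the log2 scale (Alb -1.17, Ttr -2.67, Apoa2 -3.32 and Apob -1.26), 3 were higher, and their median change was -0.49. The part of this in the 3 h values of the bile acid genes was not tested. Of 6 measured bile duct markers only Sox9 was above 0.5 in any library, at 3.80 per bp at 16 h, and their sum ran from 0 to 3.93 (16 h). None of 7 stellate cell markers was above 0.5 in any library. Summed Kupffer cell markers ranged from 2.17 to 6.02 per bp, endothelial markers from 2.10 to 4.36 and lymphocyte markers from 0 to 1.72. In whole tissue, fewer hepatocytes and less Pol II per hepatocyte cannot be told apart.

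The promoters of 3 of the genes are shown because the results below turn on them: Slc10a1 had C/EBP regions at its start in every list, and Nr0b2 and Cyp8b1 were the 2 genes with lower Pol II at every later time. Each sequence runs from 250 bases before to 50 bases after the start and is taken from RefSeq (GRCm38.p6). Promoter sequences were at hand for 6 of the 10 genes. Capitals mark the C/EBP letters TTGCNNAA, on either strand, and the TATA letters TATAAA. The sequences lie at chr12:80968030-80968329 (minus strand), chr4:133553126-133553425 (plus strand) and chr9:121916256-121916555 (minus strand), in that order.
Slc10a1: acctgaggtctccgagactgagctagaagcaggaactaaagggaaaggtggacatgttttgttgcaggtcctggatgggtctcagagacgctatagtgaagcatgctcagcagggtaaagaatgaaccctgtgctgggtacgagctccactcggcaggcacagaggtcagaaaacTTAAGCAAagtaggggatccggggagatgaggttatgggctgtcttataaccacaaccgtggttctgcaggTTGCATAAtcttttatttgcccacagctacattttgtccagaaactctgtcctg
Nr0b2: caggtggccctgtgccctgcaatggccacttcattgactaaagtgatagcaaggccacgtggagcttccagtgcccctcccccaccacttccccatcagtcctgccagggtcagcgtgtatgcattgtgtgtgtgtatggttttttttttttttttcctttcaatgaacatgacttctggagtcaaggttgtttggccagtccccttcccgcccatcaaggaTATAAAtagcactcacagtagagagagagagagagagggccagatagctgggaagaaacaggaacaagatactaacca
Cyp8b1: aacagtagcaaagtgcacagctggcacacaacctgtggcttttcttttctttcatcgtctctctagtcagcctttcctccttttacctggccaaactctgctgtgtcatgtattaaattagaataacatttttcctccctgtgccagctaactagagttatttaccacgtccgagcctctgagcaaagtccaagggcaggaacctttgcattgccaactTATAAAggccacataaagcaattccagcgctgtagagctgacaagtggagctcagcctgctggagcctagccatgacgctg
RefSeq gives 2 starts for Slc10a1. The one shown gives a gene length within 57 bp of the length in the Pol II files, against 683 bp for the other. For the promoters shown of Nr0b2 and Cyp8b1 this difference was 156 bp and 1 bp.

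With the first base of the gene counted as 0, the Slc10a1 promoter held TTAAGCAA at -75 to -68, which is the C/EBP letters on the other strand, and TTGCATAA at -4 to 3. It was the only one of the 7 promoters at hand for these genes with such letters, which 10.8% of all 32851 promoters hold. Cyp8b1 held TATAAA at -31 to -26 and Nr0b2 at -28 to -23. Slco1b2 held them at -234 and at -227, and the other Slc10a1 start at -128 on the other strand, so 4 of the 7 promoters held them, against 13.6% of all promoters on either strand. No promoter of the 7 held the Egr1 letters GCGNGGGCG (5.55% of all promoters). None held TCAAGGNCA, letters bound by the bile acid regulator LRH-1 (1.62%). Each motif was searched on both strands, and a match or its absence says nothing of binding.

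Pol II was lower on Cyp8b1 and Nr0b2 at every time after surgery. It was briefly low on Cyp7a1, Slc10a1 and Slco1b2 at 3 h. It was above the 0 h level on Baat at 6 of the 7 later times. Cyp27a1 differed from its 0 h level by less than 1 on the log2 scale at every time. Changes are differences of log2(signal per bp + 0.5) from the 0 h library, and a gene is counted as lower or higher where its change reached 1, a factor of 2 with the 0.5 included.

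**Figure D1:**
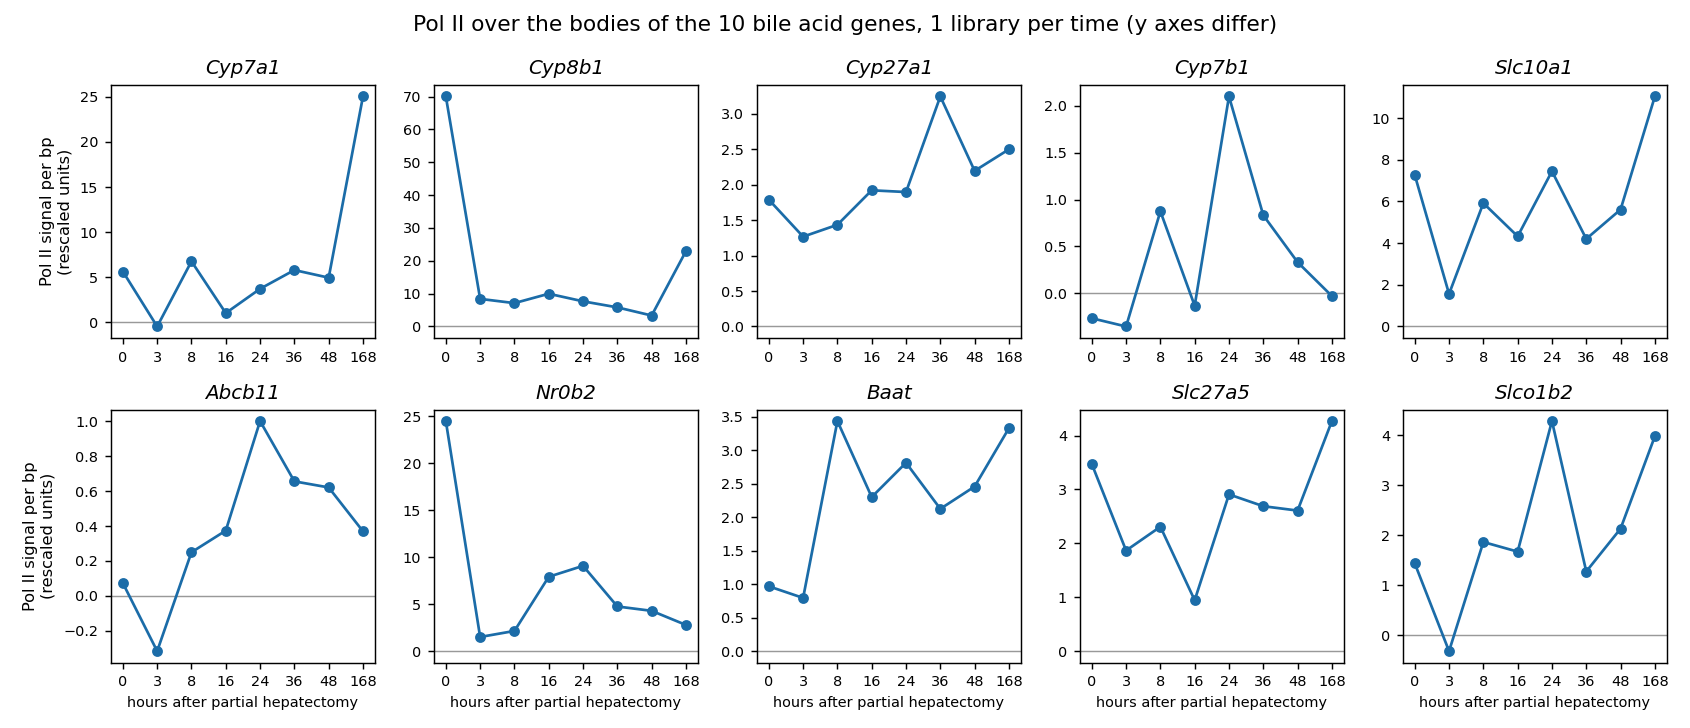
Rescaled Pol II signal per bp (y axis, scale differs between panels) of the 10 genes in the 8 libraries, in order of hours after partial hepatectomy (x axis, not to scale), with 1 point per library and the line joining them only as a guide. Cyp8b1 and Nr0b2 have their highest point at 0 h (70.1 and 24.5), Cyp7a1, Slc10a1 and Slc27a5 at 168 h (25.03, 11.03 and 4.27). Without the rescaling between libraries, Slc10a1 and Slc27a5 were highest at 0 h (8.75 and 4.18, against 6.80 and 2.63 at 168 h).

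Among the synthesis enzymes, Cyp7a1 (chr4:6192760-6202278, minus strand, mm9, the measured body) had 5.64 Pol II per bp at 0 h, then -0.45 (3 h), 6.77 (8 h), 1.03 (16 h), 3.72 (24 h), 5.80 (36 h), 4.96 (48 h) and 25.03 (168 h). Its signal was thus at background at 3 h, low again at 16 h, near the 0 h level at 8, 36 and 48 h and well above every other library at 168 h. The changes were -3.62 (3 h), -2.00 (16 h) and 2.06 (168 h). Since the 3 h signal was below 0, the size of the first rests on the added 0.5. Only 1.34% of tested genes had as high a level as Cyp7a1 at 168 h, and 10.9% had at 0 h. Without the rescaling between libraries the 168 h signal was 15.4 per bp and the 0 h signal 6.79.

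Cyp8b1 (chr9:121823475-121824923, minus strand) had 70.1 Pol II per bp at 0 h, then 8.41 (3 h), 7.12 (8 h), 9.98 (16 h), 7.66 (24 h), 5.82 (36 h), 3.34 (48 h) and 23.0 (168 h). The 0 h library stood above the other 7. The 6 libraries from 3 to 48 h ranged from 3.34 (48 h) to 9.98 (16 h), and 168 h lay between these and 0 h. That place of 168 h rests on the rescaling between libraries. Without it the 168 h signal was 14.1 per bp, below that of 16 h. At 0 h only 0.357% of tested genes carried as much Pol II per bp, and at 48 h 16.5% did. The changes ran from -2.75 (16 h) to -4.20 (48 h) over the first 6 later times and were -1.59 at 168 h. At 48 h, 0.063% of tested genes had as low a change.

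Cyp27a1 (chr1:74760649-74784464, plus strand) had 1.79 per bp at 0 h and from 1.27 (3 h) to 3.25 (36 h) later. Its changes against 0 h ran from -0.37 to 0.71. Cyp7b1 (chr3:17971951-18142838, minus strand), the oxysterol 7-alpha-hydroxylase, was below 0 at 0, 3, 16 and 168 h, with -0.26, -0.35, -0.13 and -0.03 per bp. It had 0.87 (8 h), 2.10 (24 h), 0.83 (36 h) and 0.33 (48 h). No fold is given against its 0 h signal, which was below 0. The counts below take it as higher at 8, 24 and 36 h, where its changes with the 0.5 included were 1.46, 2.38 and 1.41. A short U1 entry overlaps the Cyp7b1 body, and ChIP, which is blind to strand, cannot separate their signals.

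The 2 conjugation genes differed. Slc27a5 (chr7:13573704-13582999, minus strand) had 3.47 per bp at 0 h, then 1.87 (3 h), 2.31 (8 h), 0.94 (16 h), 2.91 (24 h), 2.69 (36 h), 2.61 (48 h) and 4.27 (168 h). Its lowest library was 16 h, with a change of -1.46, and its other changes lay between -0.75 and 0.26. Baat (chr4:49502295-49518878, minus strand) had 0.97 per bp at 0 h, then 0.79 (3 h), 3.43 (8 h), 2.30 (16 h), 2.81 (24 h), 2.12 (36 h), 2.46 (48 h) and 3.33 (168 h). The 0 h and 3 h libraries were its lowest, and the 6 from 8 h on lay above both, with changes from 0.84 to 1.42.

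Of the transporters, Slc10a1 (chr12:82054185-82068522, minus strand) had 7.27 per bp at 0 h, then 1.56 (3 h), 5.92 (8 h), 4.33 (16 h), 7.45 (24 h), 4.20 (36 h), 5.61 (48 h) and 11.03 (168 h). Only the 3 h library lay far below 0 h, with a change of -1.91, and 6.09% of tested genes had as low a change. Slco1b2 (chr6:141578540-141635156, plus strand) had 1.44 at 0 h, then -0.32 (3 h), 1.87 (8 h), 1.67 (16 h), 4.28 (24 h), 1.28 (36 h), 2.13 (48 h) and 3.98 (168 h). It was at background at 3 h and highest at 24 and 168 h, with changes of 1.30 and 1.21. Abcb11 (chr2:69076347-69180157, minus strand) carried little Pol II per bp: 0.07 at 0 h, then -0.32 (3 h), 0.25 (8 h), 0.37 (16 h), 1.002 (24 h), 0.66 (36 h), 0.62 (48 h) and 0.37 (168 h). Its 0 h and 3 h libraries were the lowest of the 8 and its 24 h library the highest, and at 24 h 49.0% of tested genes had as high a level. The Abcb11 body overlaps an entry named RP23-451M16.3.

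Nr0b2, the repressor (chr4:133109796-133112450, plus strand), had 24.5 Pol II per bp at 0 h, then 1.51 (3 h), 2.15 (8 h), 7.91 (16 h), 9.08 (24 h), 4.75 (36 h), 4.29 (48 h) and 2.79 (168 h). Its 0 h library stood far above the rest, as for Cyp8b1, but its 168 h library was among the low ones. The changes were -3.64 (3 h), -3.24 (8 h), -1.57 (16 h), -1.38 (24 h), -2.25 (36 h), -2.38 (48 h) and -2.93 (168 h). At 8 h 0.294% of tested genes had as low a change as Nr0b2 and 0.315% as low a one as Cyp8b1.

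Counted by time against 0 h, 5 of the 10 genes were lower at 3 h (Cyp7a1, Cyp8b1, Slc10a1, Slco1b2 and Nr0b2) and 0 were higher, where 21.4% of all tested genes were lower and 18.1% higher. At 8 h 2 were lower (Cyp8b1 and Nr0b2; 12.8% of all) and 2 higher (Cyp7b1 and Baat; 14.5%). At 16 h 4 were lower (Cyp7a1, Cyp8b1, Slc27a5 and Nr0b2; 10.6%) and 0 higher (15.1%). Cyp8b1 and Nr0b2 were the 2 lower genes at each of the 4 remaining times. The background for lower was 14.4% (24 h), 11.1% (36 h), 13.5% (48 h) and 19.3% (168 h). Higher were 4 at 24 h (Cyp7b1, Abcb11, Baat and Slco1b2; 18.4%), 2 at 36 h (Cyp7b1 and Abcb11; 16.5%), 1 at 48 h (Baat; 15.2%) and 3 at 168 h (Cyp7a1, Baat and Slco1b2; 17.7%).

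The median change of the 10 genes was -1.33 at 3 h against -0.08 over all tested genes, and 0.48 against 0.00 at 168 h. At the other 5 later times it lay between -0.34 and 0.05, against 0.05 to 0.12. The 2 genes lower at all 7 later times compare with 1.74% of tested genes, and 0 of the 10 were higher at all 7, against 2.6%. Without the 3 h library the same count was again 2. Leaving out a later library removes a condition, so apart from rescaling it cannot lower this count. All 7 comparisons share the 0 h library. At 168 h the higher group shrank from 3 genes to 1 without the rescaling between libraries, which moved that library by 0.97 on the log2 scale: Baat then had a change of 0.61 and Slco1b2 one of 0.40.

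**Figure D2:**
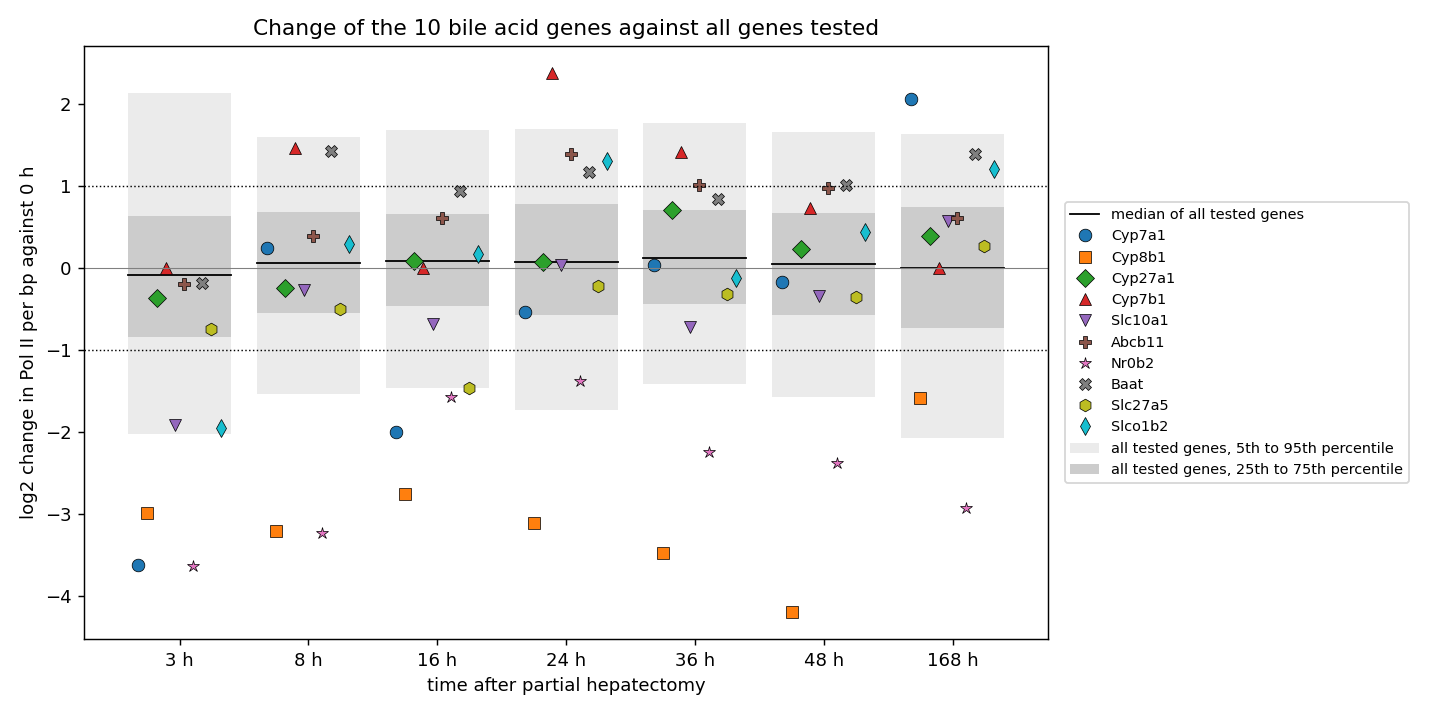
Change of each of the 10 genes against 0 h (y axis, log2 of Pol II per bp + 0.5) at the 7 later times (x axis), over the spread of the 4761 tested genes (dark band 25th to 75th percentile, light band 5th to 95th, line median); dotted lines mark -1 and 1. Cyp8b1 and Nr0b2 lie below -1 at every time, and Cyp7a1 is below the light band at 3 and 16 h and above it at 168 h.

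A limma F test for a smooth course over the 8 times, with Benjamini-Hochberg adjustment over all 4761 genes, called 0 of the 10 genes and 1 gene (0.021%) in all. At an unadjusted p under 0.05 it gave 458 of all tested genes and 1 of the 10, Abcb11, whose adjusted p was 0.510. The adjusted p of Cyp8b1 was 0.527 and that of Nr0b2 0.587, and the highest of the 10 was that of Slc10a1, 0.752. Over the other settings tried, the smallest adjusted p of any of the 10 ranged from 0.159 to 0.626. The test takes the scatter of single libraries around a smooth curve as its error. In simulated data it found 13 of 100 planted courses of 2 log2 units and 67 of 100 of 4. Each planted course climbed gradually and then came back down. A change held mainly in 1 library, such as the high 0 h signal of Cyp8b1 and Nr0b2, was not planted. These shares thus cannot be taken as the chance of finding such a change. A gene the test did not call may still have changed.

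Nr0b2 represses Cyp7a1 and Cyp8b1, so their levels were set side by side over the 8 libraries in 3 correlations. Nr0b2 and Cyp7a1 had a Pearson r of 0.138 (exact permutation p = 0.744, adjusted over the 3 p = 0.744) and a Spearman rho of -0.095 (exact p = 0.840, adjusted 1.0). Without the 0 h and 3 h libraries, the 2 farthest in Nr0b2, r was -0.723 (exact permutation p = 0.110). Nr0b2 and Cyp8b1 had r = 0.563 (exact permutation p = 0.147, adjusted 0.442) and rho = 0.286 (exact p = 0.501, adjusted 1.0), and without the same 2 libraries r was -0.167 (exact p = 0.788). Cyp7a1 and Cyp8b1 had r = 0.253 (exact permutation p = 0.522, adjusted 0.744) and rho = 0.0 (exact p = 1.0, adjusted 1.0), and 0.034 (exact p = 0.926) without 3 and 168 h. None passed, and both signs that involve Nr0b2 turned when 2 libraries were left out.

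The genes whose log2 levels over the 8 libraries were most like those of Cyp7a1 were Serpina1a (Pearson r = 0.975) and Lpin2 (0.973), of 75 genes with r above 0.9. For Cyp8b1 they were Eif1 (0.975) and Bcl6 (0.973), of 34, for Slc10a1 Aqp9 (0.991) and Habp4 (0.989), of 200, and for Nr0b2 Pmpca (0.978) and Cyp2d26 (0.949), of 14. These are the highest among 4761 tested genes over 8 shared libraries and are given as a description.

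Other genes of the pathway are given from lists by role. Of 11 tested further transporters (19 listed), 7 were lower at 3 h and 0 higher, with a median change of -1.35, where 21.4% of all tested genes were lower and 18.1% higher with a median of -0.08. Among them Abcc2, which exports conjugates into bile, had 6.32 Pol II per bp at 0 h, 0.51 at 3 h and between 3.40 and 8.12 from 8 h on, a change of -2.76 at 3 h. Ephx1, an epoxide hydrolase listed for a reported role in bile acid uptake, had 3.12 at 0 h, -0.25 at 3 h and from 0.61 to 2.36 later. Slc10a5, a relative of Slc10a1, was below 0 at 0 and 3 h and had 4.11 at 168 h. Of 8 tested cholesterol supply genes (9 listed) 4 were lower and 1 higher at 3 h, against the same 21.4% and 18.1%. Insig1, which holds back cholesterol synthesis, had 14.6 at 0 h, 1.66 at 3 h and from 6.66 to 15.4 later. Of 9 tested further enzymes (12 listed) 1 was lower and 1 higher at 3 h, no more than those shares. Cyp2c70, which makes the muricholic acids of mice, was the higher one, at -0.14 at 0 h and 2.63 at 3 h.

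Of 13 tested regulators (16 listed), 5 were lower and 1 higher at 3 h, and 4 were lower and 1 higher at 8 h. The shares of all tested genes were 21.4% and 18.1% at 3 h, and 12.8% and 14.5% at 8 h. Fgfr4, the receptor through which gut FGF15 restrains Cyp7a1, was the one higher at all 7 later times (2.6% of all tested genes were), at -0.06 per bp at 0 h and from 0.51 (36 h) to 2.62 (16 h) later, though the size of its changes rests on the added 0.5. Foxa2, a liver pioneer factor, had 5.43 per bp at 0 h, 0.26 at 8 h and from 1.62 to 3.00 in the other libraries to 48 h. At 168 h it had -4.39 per bp, far below 0, and this value was set to 0 ahead of the log2. Nr1d1, a clock repressor, had 32.5 per bp at 0 h, then 5.11 (3 h), 12.5 (8 h), 0.07 (16 h), 13.5 (24 h), 1.28 (36 h), 16.8 (48 h) and 18.7 (168 h). Its low libraries at 3 and 16 h were also those of Cyp7a1, while at 36 h Nr1d1 was low and Cyp7a1 was not. The part of the daily clock in the Cyp7a1 course was not tested. No gene of these lists passed the limma test over all genes. The smallest adjusted p was 0.458, for Foxa2.

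C/EBP regions lay within 10 kb of the starts of 8 to 10 of the genes in any single list, where 60.6% to 80.7% of tested genes had one. Regions of C/EBPalpha were present in all 8 lists for 8 of the 10, all but Baat and Slco1b2, where 41.7% of the genes tested for Pol II and 18.7% of all measured genes had this. C/EBPbeta gave the same 8 of 10, against 47.6% of tested and 21.5% of measured genes. With the 10000 highest-scoring regions of each list, the counts were 4 for C/EBPalpha (17.6% of tested and 6.91% of measured genes) and 2 for C/EBPbeta (17.1% and 6.72%). Within 1 kb, regions were in all 8 C/EBPalpha lists for 3 genes (Cyp27a1, Slc10a1 and Abcb11; 13.6% of tested and 6.05% of measured genes). In all 8 C/EBPbeta lists they were for 4, the same and Nr0b2 (16.6% and 7.46%).

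Neighbouring regions of the 16 lists, with centres no more than 100 bp apart, were taken as 1 site. The 10 genes had 75 sites, of which 5 were in all 16 lists, 4 in 15 and 29 in 1 list. The share in all 16 lists, 6.67%, was near the 6.20% of all 113918 sites. A site in all 16 lists was found for 4 of the 10 genes (Cyp8b1, Slc10a1, Slc27a5 and Nr0b2), against 28.9% of tested and 12.7% of measured genes. At least 2 sites in 8 or more lists were found for 9 of the 10, against 32.1% of tested genes. Distances are given from the gene start, negative upstream. This start is that of the measured body moved back 500 bp, and RefSeq may place it elsewhere. The RefSeq length exceeded the measured length by 501 bp (Cyp8b1) to 1916 bp (Baat).

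**Figure D3:**
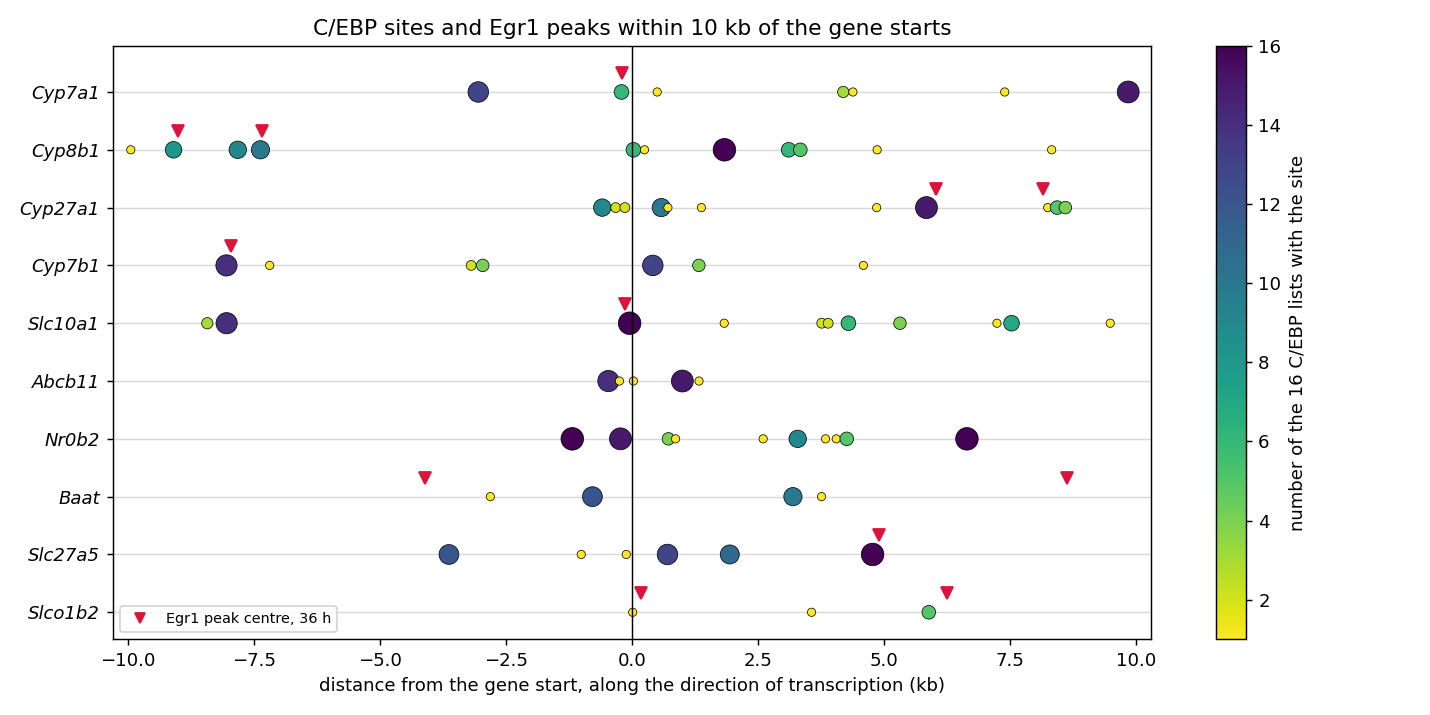
C/EBP sites (circles; colour and size give the number of the 16 lists that hold the site) and Egr1 peak centres at 36 h (triangles) by distance from the start of each of the 10 genes (x axis, kb, negative upstream). Slc10a1 has a site in all 16 lists at its start, Nr0b2 has 2 such sites on either side of the gene, and Slco1b2 has no site in more than 5 lists.

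At Slc10a1 the site in all 16 lists lay at -44 bp (chr12:82068950-82069132, mm9, the span of the region centres), and centres ran from -109 to 73 bp. The stretch printed above, with its 2 C/EBP letter matches, covers the upstream side of that window and its first 50 bases past the start in GRCm38.p6, to within the 57 bp by which the 2 annotations differ in length. A further site at -8040 bp was in 14 lists. The best Slc10a1 region was in the top 4.73% of the C/EBPalpha list at 0 h by the authors' score. Pol II on Slc10a1 was at its lowest at 3 h. The site at -44 bp, being in all 16 lists, is by definition in those of 3 h, which says nothing of a link with Pol II.

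Nr0b2 had the highest-ranked region of the 10 genes in every list except that of C/EBPbeta at 24 h, where Slc27a5 did. Its site at -1182 bp (chr4:133108047-133108150) was in all 16 lists, as was one at 6649 bp (chr4:133115893-133116020), past the end of the gene, and no other measured gene starts closer to either. Another at -226 bp was in 15 lists. The best Nr0b2 region was in the top 0.427% of the C/EBPalpha list at 168 h and the top 0.391% of the C/EBPbeta list at 3 h, and at worst in the top 7.76% and 11.7%. Lists differ in length, from 20061 to 54574 regions, so these ranks show no change between times. Pol II on Nr0b2 was highest at 0 h and lowest at 3 h. Sites in all 16 lists are by definition in the lists of both times, so their presence there says nothing of a link with Pol II.

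**Figure D4:**
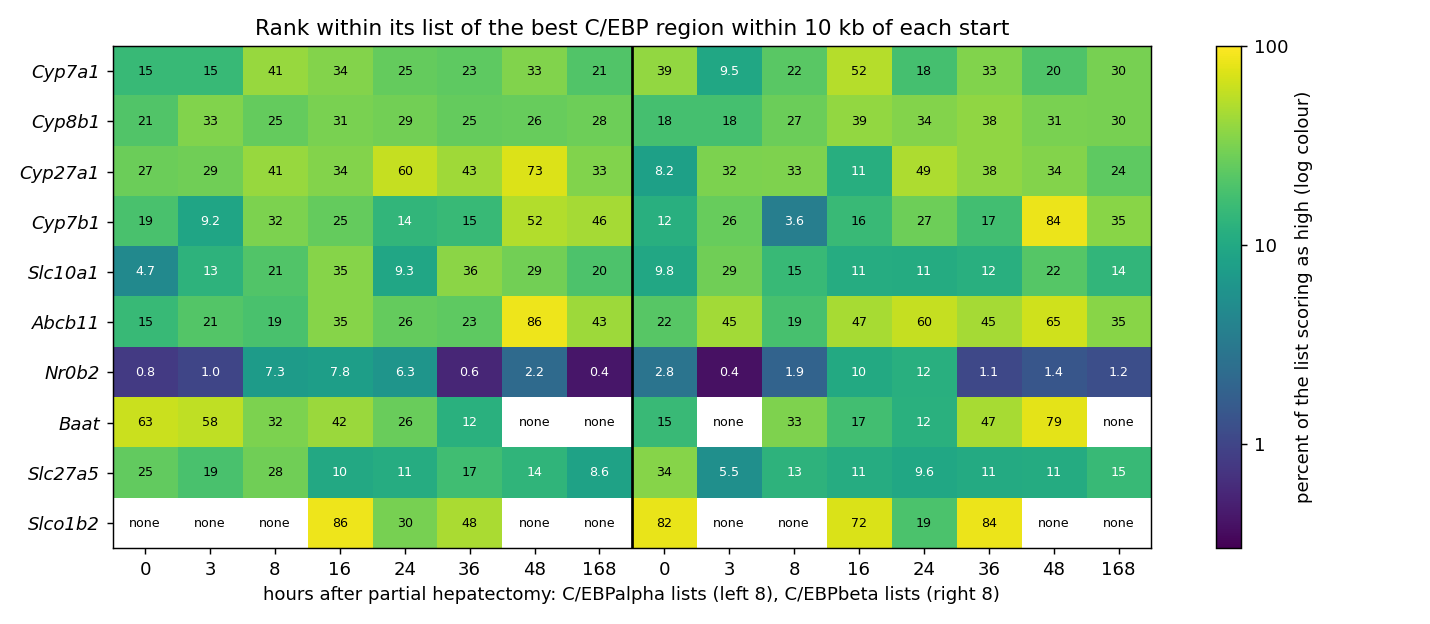
Percent of regions in the same list that score as high as the best region within 10 kb of each gene (cell text and log colour, low is a high rank), for the 8 C/EBPalpha lists (left) and 8 C/EBPbeta lists (right) by hours after surgery; white cells hold no region. Nr0b2 is at or below 12 in every list, and Baat and Slco1b2 have empty cells.

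Cyp8b1 had 1 site in all 16 lists, at 1837 bp (chr9:121823487-121823615), near the end of this short gene and inside its body. A group of sites upstream at -7369, -7819 and -9093 bp was in 10, 9 and 8 lists. At the start itself a site at 31 bp was in 6 lists, those of C/EBPalpha at 36 and 168 h and of C/EBPbeta at 3, 36, 48 and 168 h. The 0 h lists, where Pol II on Cyp8b1 was highest, did not hold it, but that of C/EBPbeta had a separate region at 251 bp. Cyp7a1 had sites at 9849 bp, near the end of its body, in 15 lists and at -3047 bp in 13. Its site nearest the start, at -205 bp, was in 6 lists, those of C/EBPalpha at 0, 3, 8 and 24 h and of C/EBPbeta at 0 and 8 h. Neither factor had a region there at 36 h or later, which includes the 168 h library with the highest Pol II on Cyp7a1.

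In the alternative pathway, Cyp27a1 had sites at 5846 bp in 15 lists, at 584 bp in 10 and at -587 bp in 9. Cyp7b1 had sites at -8043 bp in 14 lists and at 416 bp in 13, and its best region was in the top 3.57% of the C/EBPbeta list at 8 h. Slc27a5 had a site at 4777 bp (chr7:13578622-13578758), inside its body, in all 16 lists, with others at 707, -3629 and 1943 bp in 13, 12 and 11. Abcb11 had sites on both sides of its start, at 1003 bp in 15 lists and at -465 bp in 14. Baat had a site at -782 bp in 12 lists, with none within 10 kb for C/EBPalpha at 48 and 168 h or for C/EBPbeta at 3 and 168 h. Slco1b2 had the fewest, a site at 5892 bp in 5 lists (C/EBPalpha at 24 and 36 h, C/EBPbeta at 16, 24 and 36 h) and 2 sites in 1 list each. Exons and introns in mm9 were not used here, so a site inside a body is not assigned to either.

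At 36 h Egr1 peaks lay within 10 kb of 8 of the 10 genes, all but Abcb11 and Nr0b2, against 19.5% of tested and 10.9% of measured genes. Within 1 kb they lay at 3 genes (Cyp7a1, Slc10a1 and Slco1b2), against 3.78% and 2.22%. Among the 8 genes, the highest-scoring peak was that of Cyp7a1 at -192 bp (chr4:6202515-6203426), with an authors' score of 382, in the top 10.6% of the 9895 peaks. It covered the Cyp7a1 site at -205 bp, which neither C/EBP list held at 36 h. Peaks at Cyp8b1 (-7341 bp, score 355) and Slc27a5 (4906 bp, score 347) followed, in the top 11.8% and 12.1%. The Slc27a5 peak lay 129 bp from the C/EBP site in all 16 lists, and the Slc10a1 peak at -131 bp (score 111) lay 87 bp from its own. The weakest were those of Slco1b2, with scores of 64.2 and 57.4. In all, 9 of the 12 peaks near these genes had a C/EBP site, of any time, within 200 bp of their centre, as had 51.3% of all Egr1 peaks. Besides that of Cyp7a1, the matched sites at Cyp8b1 (-9093 bp), Cyp27a1 (8251 bp) and Slco1b2 (17 bp) had no region at 36 h. The other matched sites had one. Egr1 peaks were wide (median 994 bp against 17 to 26 bp for the C/EBP lists), and with 1 Egr1 time point nothing can be said of change.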

How the data were processed

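Of 26 samples, 25 had files that were used; the mock immunoprecipitation at 0 h was not analysed here. The submitters' processing notes name Bowtie 0.12.7, MACS 1.4.1 and the mm9 build without saying what each was used for. Titles gave the antibody and time that define each group. The deposited Pol II files hold a signed score per gene, of a unit that is not stated. It was treated here as a signal summed over the body from about 500 bp past the start, which was not tested. The RefSeq length exceeded the measured length by 500 to 505 bp for 1474 of 15380 genes compared. The C/EBP and Egr1 lists hold regions with the authors' score, used here only for ranks and cut-offs inside 1 list. No source used here gives filters, controls, pooling of mice, library batches or the authors' scaling of Pol II between libraries. Depth is unknown, because the files hold no read counts, and counting errors cannot be given. Batch effects and effects of time cannot be told apart.

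Of 31804 entries, those with a usable name, place and body of at least 500 bp were measured (20933), and starts were moved back 500 bp by strand. Signal was divided by body length and brought to 1 scale by median ratios of 1472 genes above 0.5 in all 8 libraries, which moved changes against 0 h by 0.26, 0.33, -0.32, 0.41, -0.01, 0.33 and 0.97 (log2) from 3 to 168 h. Negative values became 0 and a pseudocount of 0.5 went in ahead of the log2, which understates the change of low genes. limma 3.58.1 in R 4.3.3 tested the genes above 0.5 in 2 libraries, with time ranks in a spline (3 degrees of freedom). The outcome of a check on simulated data is given with the test above. The limma p-values rest on the scatter of single libraries around a smooth curve, which also takes in any change that is not smooth. The permutation p-values of the correlations treat every order of the libraries as equally likely. Promoters, names and lengths came from RefSeq (GRCm38.p6); positions in the files are mm9, and none was converted.

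The members and lists were chosen with earlier results of these data known. All 10 genes are named, with the 8 pathway genes of largest change (2 or more) and the 2 most similar genes for each of Cyp7a1, Cyp8b1, Slc10a1 and Nr0b2. Alternatives covered scaling, the added constant, background, filters, left-out libraries, list length and distance.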

Additional observations from a re-analysis of the deposited data

How the results depend on the processing

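No paired analysis was possible because the labels give no replicate numbers and each antibody and time has 1 library. The limma count of 1 gene fell to 0 with an added constant of 0.05, with the background set per library and with no filter, and ranged from 0 to 1 with each library left out; none of the 10 bile acid genes was called in any setting. The cause was not tested. Genes higher at 168 h were 1 without rescaling and 1 with an added constant of 2, against 3. The correlation of Nr0b2 with Cyp7a1 turned to -0.0025 with a constant of 2 and ran from -0.458 (without 3 h) to 0.416 with 1 library left out. That of Nr0b2 with Cyp8b1 ran from -0.147 (without 0 h) to 0.716. Genes with a region in all 8 lists were 4 for C/EBPalpha and 2 for C/EBPbeta with the 10000 top regions, 3 and 4 within 1 kb, and Egr1 peaks lay within 1 kb of 3. The count of genes lower at all later times was 2 in each Pol II setting tried for it, a check chosen after seeing the data. Leaving out a later library could hardly lower that count, and the 0 h library was kept in all of these settings. Of 70 changes of single genes, 2 crossed the size of 1 with the background set per library, 6 without rescaling, 8 with a constant of 0.05 and 12 with 2. None changed sign while called. Unknown depth and single libraries limit each value.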
